A study of Homo sapiens with 6 samples.

Results

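The genes described here encode 10 kinases of the p38 and JNK stress cascade, read in PANC1, a human pancreatic carcinoma line grown as an established culture. They were taken by name (MAP4K2, MAP3K5, MAP2K3, MAP2K6, MAP2K4, MAP2K7, MAPK8, MAPK9, MAPK11 and MAPK14), and all 10 were found among the 20461 genes of the expression table by their Ensembl identifiers. The compared groups were PANC1 cells given vehicle (DMSO) and PANC1 cells given 50 nM gemcitabine, a nucleoside analogue that stalls DNA synthesis, for 48 h, with 2 RNA-seq libraries and 1 DNaseI-seq library in each group. PANC1 is a single tumour line, so the values speak for that line alone, and the time of the DNaseI treatment is not restated in the methods. The question put to these libraries was how gemcitabine changed expression of the kinases and of the genes around them.

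Stress-activated kinase cascades relay signals such as DNA damage, oxidants, osmotic shock and inflammatory cytokines in ordered tiers. A MAP4K or an adaptor engages a MAP3K, the MAP3K phosphorylates a MAP2K, and the MAP2K phosphorylates a p38 or JNK kinase on both a threonine and a tyrosine. The terminal kinases phosphorylate transcription factors of the AP-1 and ATF families as well as further kinases. Activity in this cascade is set by phosphorylation, whereas the libraries measured RNA.

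The libraries held 13194533 to 15766237 fragments on protein-coding genes, and each of the 10 kinase genes was read by 282 to 1692 fragments in every library. All 10 passed the filter on low counts, and their fragment values were whole numbers in all 4 libraries. Of the epithelial and ductal markers, KRT7, KRT8 and KRT18 carried most of the summed level, 2189 to 2254 CPM in vehicle and 2435 to 2588 CPM in gemcitabine, while EPCAM and KRT19 had at most 94 fragments in any library. All 5 acinar and islet markers had at most 3 fragments in every library. Among the 6 leukocyte, endothelial and fibroblast markers in the table, summed to 3977 to 4099 CPM in vehicle and 4304 to 4617 CPM in gemcitabine, COL1A1 made up nearly all of the level, and CD3E and CD14 had at most 3 fragments. KRT19 (45 and 45 fragments in vehicle, 94 and 88 in gemcitabine, adjusted p = 0.000651 in edgeR) and VWF (8 and 9 against 34 and 30, adjusted p = 0.000902) were higher in gemcitabine, and KRT8, KRT18 (higher) and KRT7 (lower) were also called. The part of these marker levels in the results was not tested.

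The promoter sequences of 5 members are shown because they carry either the largest rises in RNA or an open-chromatin peak, and they are referred to again below. Each is a RefSeq window (GRCh38.p14) from 250 bases before to 50 bases after a start site, located in hg19, the build of the deposited files, by an exact match over its whole length, and is written from 5′ to 3′ on the strand of the gene. Capitals mark a GC box, GGGCGG on either strand, the core letters that Sp-family factors are known to bind.
MAP4K2 (hg19 chr11:64570637-64570936, minus strand): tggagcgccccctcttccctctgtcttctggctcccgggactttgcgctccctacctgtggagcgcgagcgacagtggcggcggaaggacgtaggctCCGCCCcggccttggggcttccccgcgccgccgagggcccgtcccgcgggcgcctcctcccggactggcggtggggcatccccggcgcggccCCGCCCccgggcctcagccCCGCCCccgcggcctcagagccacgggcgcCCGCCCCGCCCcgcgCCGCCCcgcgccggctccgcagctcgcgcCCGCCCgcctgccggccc
MAPK11 (hg19 chr22:50708760-50709059, minus strand): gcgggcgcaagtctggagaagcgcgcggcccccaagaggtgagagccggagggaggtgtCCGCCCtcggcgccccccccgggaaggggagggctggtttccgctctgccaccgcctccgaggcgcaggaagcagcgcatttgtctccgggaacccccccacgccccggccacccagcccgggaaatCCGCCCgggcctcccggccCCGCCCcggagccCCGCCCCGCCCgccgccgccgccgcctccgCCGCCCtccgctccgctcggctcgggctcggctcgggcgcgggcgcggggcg
MAP2K3, downstream start (hg19 chr17:21191098-21191397, plus strand): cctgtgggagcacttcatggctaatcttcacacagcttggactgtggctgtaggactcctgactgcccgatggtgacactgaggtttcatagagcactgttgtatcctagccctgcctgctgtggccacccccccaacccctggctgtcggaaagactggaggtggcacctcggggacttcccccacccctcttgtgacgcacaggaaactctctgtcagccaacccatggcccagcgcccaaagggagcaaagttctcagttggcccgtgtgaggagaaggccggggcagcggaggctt
MAP2K7 (hg19 chr19:7968512-7968811, plus strand): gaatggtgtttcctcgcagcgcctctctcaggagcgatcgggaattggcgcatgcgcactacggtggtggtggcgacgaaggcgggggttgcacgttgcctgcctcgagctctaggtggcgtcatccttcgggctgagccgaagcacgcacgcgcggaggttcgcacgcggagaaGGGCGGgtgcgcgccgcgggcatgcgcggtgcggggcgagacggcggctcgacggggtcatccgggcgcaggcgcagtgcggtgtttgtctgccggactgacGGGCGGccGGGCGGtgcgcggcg
MAPK14 (hg19 chr6:35995335-35995634, plus strand): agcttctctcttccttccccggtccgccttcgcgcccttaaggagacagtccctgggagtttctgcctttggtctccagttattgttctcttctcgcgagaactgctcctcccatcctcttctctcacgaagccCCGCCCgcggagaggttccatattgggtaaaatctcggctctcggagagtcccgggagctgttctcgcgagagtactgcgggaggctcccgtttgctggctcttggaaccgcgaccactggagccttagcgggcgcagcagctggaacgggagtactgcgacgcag
The MAP4K2 window held 7 GC boxes and had a G and C content of 81.7%, and the MAPK11 window held 6 at 80.7%. The MAP2K7 window held 3, the MAPK14 window 1 and the downstream MAP2K3 window 0. Of the windows not printed, that of MAPK8 held 5, the upstream MAP2K3 window 4 and those of MAP2K6 1 and 0. Those of MAPK9 held 0, 1 and 2, and the MAP2K4 window and each MAP3K5 window held 1. Whether GC boxes went with the change in RNA was not tested. Over all RefSeq windows of the 10 genes, 12 of 15 held a GC box, beside 45% of 35116 promoter windows of the same length genome-wide. The ETS letters CCGGAAG stood in 1 of the 15 windows (10.3% of all windows), the AP-1 letters TGANTCA in 1 (7.71%) and the CRE letters TGACGTCA in 0 (1.85%), each searched on both strands and none sharing letters with another kind, while GC boxes that overlap by a base were each counted. These matches describe the letters of the windows and say nothing of binding in PANC1.

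In gemcitabine-treated cells, 5 of the 10 kinase genes had more RNA and 0 had less at an adjusted p under 0.05 (the quasi-likelihood test of edgeR, adjusted by Benjamini and Hochberg's method over 14854 genes). Over all genes tested, 18.5% were called higher and 20.0% lower. The members were chosen with earlier results of these data known, so setting them beside these shares is no test of the set. The 5 were MAP4K2 at the top of the cascade, MAP2K3 and MAP2K6, the kinases that activate p38, and MAPK11 and MAPK14, which are p38 kinases themselves. All 4 members that belong to the p38 arm alone were called higher, the median log2 change being 0.32. The p38 kinases MAPK12 and MAPK13 are not members and were not called. The 3 members that belong to the JNK arm alone (MAP2K7, MAPK8 and MAPK9) were not called, with a median of -0.09, and over all genes the median was 0.01. Without adjustment 1 member, MAP2K7, was lower at a p under 0.05, and DESeq2 and limma called 0 members lower.

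**Figure D1:**
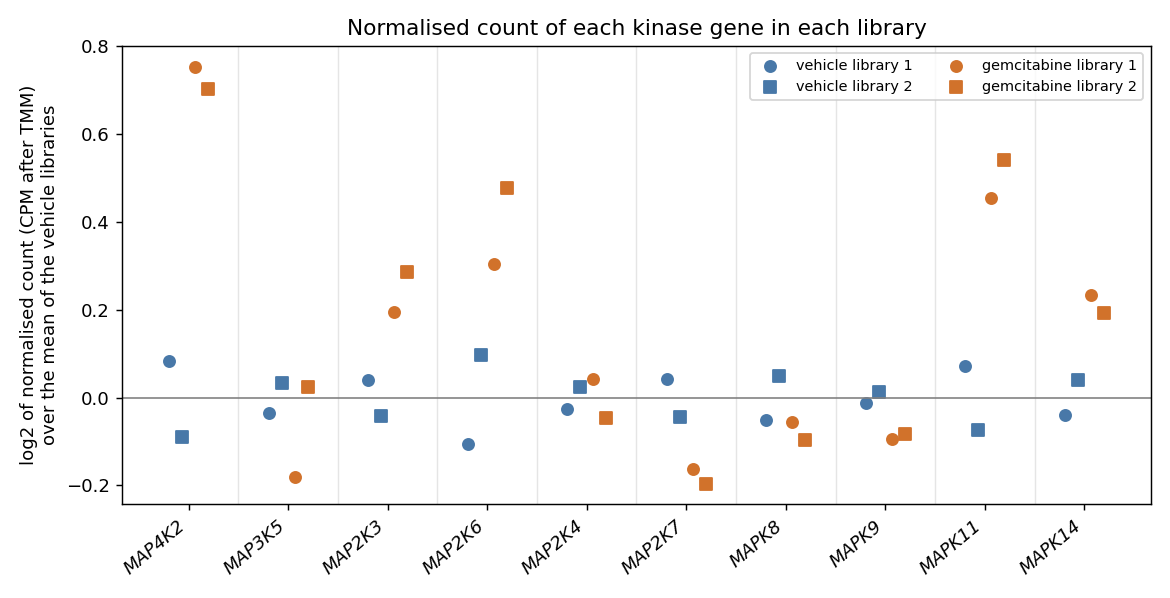
Each point is 1 library, placed at the log2 ratio of its normalised count (CPM, fragments scaled to the library total, after TMM scaling) to the mean of the 2 vehicle libraries, with vehicle in blue and gemcitabine in orange. Both gemcitabine libraries lay above both vehicle libraries for MAP4K2, MAP2K3, MAP2K6, MAPK11 and MAPK14, and below them for MAP2K7, MAPK8 and MAPK9, for which the conditions overlapped when scaled to library totals alone. The share of all genes without overlap between the conditions was not computed.

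MAP4K2 encodes a Ste20-type kinase that feeds into MAP3Ks of the JNK and p38 pathways, and it showed the largest change of the 10. Its gene lies at hg19 chr11:64552390-64570713 on the minus strand. The vehicle libraries held 507 and 471 fragments of MAP4K2 and the gemcitabine libraries 770 and 730. The normalised count (CPM, fragments scaled to the library total, after TMM scaling) was 32.9 ± 2.80 in vehicle and 54.5 ± 1.33 in gemcitabine (SD, n = 2), with no overlap. The log2 fold change was 0.73 ± 0.09 (SE), a 1.66-fold rise, at an adjusted p of 1.32e-05 in edgeR's quasi-likelihood test. With the fold change and adjusted p taken from edgeR in place of Cuffdiff's test, MAP4K2 was the 1 member that met 4 criteria patterned on those of the study, an adjusted p under 0.05, a fold change over 1.5, a mean of at least 0.1 FPKM in 1 condition and a difference of at least 1 FPKM. With the fold taken from the ratio of mean FPKM, 3 members met them, MAP4K2 (1.63), MAP2K6 (1.83) and MAPK11 (1.70). With the fold of edgeR, 5.69% of all genes tested met these criteria in the higher direction. The share over all genes with the fold from the ratio of mean FPKM was not computed. Among kinases affected by the inhibitors of its screen, the study, with Cuffdiff, named MAP4K2 and MAP2K6 as changing expression with gemcitabine. Members outside that set of kinases were not covered by its list. A lincRNA on the same strand shares 700 exonic bases with MAP4K2, and its reads cannot be told apart from those of the kinase. Its promoter, with the 7 GC boxes shown above, was covered by no DNaseI peak in either condition.

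MAP3K5 (hg19 chr6:136878184-137114235) encodes ASK1, a MAP3K that is held inactive by thioredoxin and released by oxidants, and it was the lowest-expressed of the 10. The vehicle libraries held 327 and 359 fragments of MAP3K5 and the gemcitabine libraries 282 and 319. After TMM scaling the conditions overlapped, at 22.5 and 23.6 in vehicle and 20.3 and 23.4 in gemcitabine. The log2 fold change was -0.08, with a 95% interval from -0.30 to 0.15. For TXN, the thioredoxin gene, the log2 fold change was also -0.08 (adjusted p = 0.402, edgeR), and was named after its value was seen.

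The MAP2Ks that activate p38, MAP2K3 (MKK3, hg19 chr17:21187984-21218544) and MAP2K6 (MKK6, hg19 chr17:67410838-67550006), both had more RNA in gemcitabine. The vehicle libraries held 1522 and 1507 fragments of MAP2K3 and the gemcitabine libraries 1619 and 1692. The normalised count of MAP2K3 was 102 ± 4.08 in vehicle and 120 ± 5.37 in gemcitabine (SD, n = 2), a log2 fold change of 0.24 ± 0.07 (SE) (adjusted p = 0.0119, edgeR). Every normalised count of MAP2K3 in gemcitabine exceeded both in vehicle, but the call was lost when either vehicle library was left out. The log2 fold change was 0.29 without vehicle library 1 and 0.21 without vehicle library 2. Here and below, a fit without 1 library takes its spread from the pair left whole, so a lost call does not measure robustness.

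For MAP2K6 the fragments numbered 466 and 562 in vehicle and 591 and 654 in gemcitabine. The normalised count was 34.5 ± 3.42 in vehicle and 45.3 ± 3.85 in gemcitabine (SD, n = 2), a log2 fold change of 0.39 ± 0.09 (SE) (adjusted p = 0.00449, edgeR). The lower of the vehicle libraries weighed on this value, since without it the log2 fold change was 0.30 and the call was lost. The FPKM scale divides by transcript length as well as by library depth. On it MAP2K6 stood at 16.7 and 21.6 in vehicle and at 37.5 and 32.7 in gemcitabine. The ratio of mean FPKM was 1.83, where the normalised counts gave 1.31 and CPM without TMM scaling gave 1.42.

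MAP2K4 (MKK4, hg19 chr17:11924146-12047147) can activate both JNK and p38, and MAP2K7 (MKK7, hg19 chr19:7968728-7979363) is the activator dedicated to JNK. For MAP2K4 the vehicle libraries held 978 and 1061 fragments and the gemcitabine libraries 979 and 903. Its normalised counts overlapped, and the log2 fold change was 0.00 with a 95% interval from -0.16 to 0.15. For MAP2K7 the fragments numbered 708 and 698 in vehicle and 586 and 562 in gemcitabine.

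The normalised count of MAP2K7 was 47.3 ± 2.04 in vehicle and 41.7 ± 0.68 in gemcitabine (SD, n = 2). Both gemcitabine libraries lay below both vehicle libraries on this scale, but not as CPM without TMM, at 46.7 and 44.3 in vehicle and 44.4 and 42.3 in gemcitabine. The log2 fold change of -0.18 had a standard error of 0.08 and a 95% interval from -0.35 to -0.01, and it did not pass after adjustment (adjusted p = 0.0906, edgeR). With library totals it was -0.07. A lncRNA on the opposite strand shares 438 exonic bases with MAP2K7, and reads of the pair cannot be told apart in libraries that do not mark strand.

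The JNK kinases MAPK8 (JNK1, hg19 chr10:49514682-49647403) and MAPK9 (JNK2, hg19 chr5:179660143-179719099) phosphorylate JUN and related factors. For MAPK8 the vehicle libraries held 500 and 561 fragments and the gemcitabine libraries 476 and 454. The log2 fold change was -0.08, its 95% interval running from -0.26 to 0.11 (adjusted p = 0.527, edgeR). For MAPK9 the fragments numbered 981 and 1045 in vehicle and 885 and 875 in gemcitabine. Here the log2 fold change was -0.09, its 95% interval running from -0.24 to 0.06 (adjusted p = 0.345, edgeR). After TMM scaling the conditions did not overlap for either gene, by a margin of 34.4 against 34.3 for MAPK8. Scaled to library totals instead, where the median of all genes moved from 0.01 to 0.12, the log2 fold changes of MAPK8 and MAPK9 were 0.03 and 0.02, above 0 and below that median, and the conditions overlapped. On FPKM both genes leaned upward, MAPK8 from 26.0 and 26.8 in vehicle to 31.5 and 26.9 in gemcitabine and MAPK9 from 28.4 and 28.0 to 32.3 and 28.4. The log2(FPKM + 1) difference was 0.14 for MAPK8 and 0.10 for MAPK9, beside a median of 0.105 over all genes on that scale, and neither passed in limma (adjusted p = 0.455 and 0.55). MAPK10 (JNK3), known mainly from neurons, had 9 and 9 fragments in vehicle and 13 and 9 in gemcitabine and contributed almost nothing to the tier.

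The p38 kinases MAPK14 (p38α) and MAPK11 (p38β) both had more RNA in gemcitabine. MAPK11 lies at hg19 chr22:50702142-50709196 on the minus strand, and its fragments numbered 377 and 357 in vehicle and 470 and 489 in gemcitabine. Its normalised count was 24.7 ± 1.77 in vehicle and 34.9 ± 1.44 in gemcitabine (SD, n = 2), a 1.41-fold rise with a log2 fold change of 0.50 ± 0.09 (SE) (adjusted p = 0.000754, edgeR). The rise stayed under the fold of 1.5 in this fit and passed it with library totals, at a log2 fold change of 0.61, and on FPKM, where the values were 11.7 and 10.3 in vehicle and 18.0 and 19.3 in gemcitabine. The promoter of MAPK11 holds the 6 GC boxes printed above and had no DNaseI peak in either condition.

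MAPK14 (hg19 chr6:35995559-36079013), the p38 kinase that is found in nearly all tissues, had 1375 and 1522 fragments in vehicle and 1588 and 1515 in gemcitabine. The fragment numbers overlapped, and the normalised counts, 97.3 ± 3.77 and 113 ± 2.24 (SD, n = 2), did not. The log2 fold change was 0.21 ± 0.07 (SE) (adjusted p = 0.0205, edgeR), the smallest of the 5 calls. DESeq2 gave a change of 0.22 at an adjusted p of 0.0605. The edgeR call was lost when either vehicle library was left out, at log2 fold changes of 0.18 and 0.26.

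The remaining p38 kinases were not called by edgeR, DESeq2 or limma, nor at an unadjusted p under 0.05 in edgeR. MAPK12 (p38γ), best known from muscle, had 891 and 944 fragments in vehicle and 804 and 744 in gemcitabine, a log2 fold change of -0.13 (adjusted p = 0.176, edgeR). MAPK12 shares 2763 exonic bases with HDAC10 on the same strand and its fragment values were not whole numbers, so its counts are uncertain. MAPK13 (p38δ) had 27 to 39 fragments in a library.

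Summed over MAP2K3, MAP2K6, MAPK11 and MAPK14, the p38 arm held 3740 and 3948 fragments in vehicle and 4268 and 4350 in gemcitabine. That sum leaves out the p38 kinases MAPK12 and MAPK13, which are not members. MAPK12 had 891 and 944 fragments in vehicle and 804 and 744 in gemcitabine, with the uncertainty given above. The JNK arm, summed over MAP2K7, MAPK8 and MAPK9, held 2189 and 2304 fragments in vehicle and 1947 and 1891 in gemcitabine. The ratio of the sums within a library, which no library scaling can move, was 1.71 and 1.71 in vehicle and 2.19 and 2.30 in gemcitabine. The gemcitabine libraries thus lay above the vehicle libraries in this ratio, which is a description of these sums and was not tested.

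In 2 of the 4 paralog pairs the ratio of fragments did not overlap between the conditions. No share over other gene pairs was computed to set beside this count. The ratio of MAPK14 to MAPK11 fragments was 3.65 and 4.26 in vehicle and 3.38 and 3.10 in gemcitabine, a difference of -0.29 in log2. The ratio of MAP2K4 to MAP2K7 fragments was 1.38 and 1.52 in vehicle and 1.67 and 1.61 in gemcitabine, a difference of 0.18. For both pairs the exact 2-sided permutation test gave p = 0.333, the smallest that 2 libraries against 2 allow (0.667 after adjustment over the 4 pairs). The ratios of MAP2K3 to MAP2K6 (a log2 difference of -0.15) and of MAPK8 to MAPK9 (0.01) overlapped between the conditions, each with p = 0.667 in the exact test. No pair could have reached 0.05 in this design.

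On the FPKM scale, which compares levels between genes, MAP2K3 stood highest, at 64.7 and 55.7 FPKM in vehicle and 68.2 and 78.6 FPKM in gemcitabine. MAP2K7 and MAPK12 followed at vehicle means of 36.0 and 32.8 FPKM and overlapped each other, with the uncertainty of MAPK12 given above. MAPK9 stood at 28.2 FPKM, and MAPK8 (26.4 FPKM) and MAPK14 (25.1 FPKM) overlapped each other. MAP4K2, MAP2K6 and MAP2K4 lay together at 19.2, 19.2 and 18.7 FPKM, followed by MAPK11 at 11.0 FPKM and MAP3K5 at 4.57 FPKM. MAPK13 and MAPK10 came last at 1.63 and 0.02 FPKM.

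**Figure D2:**
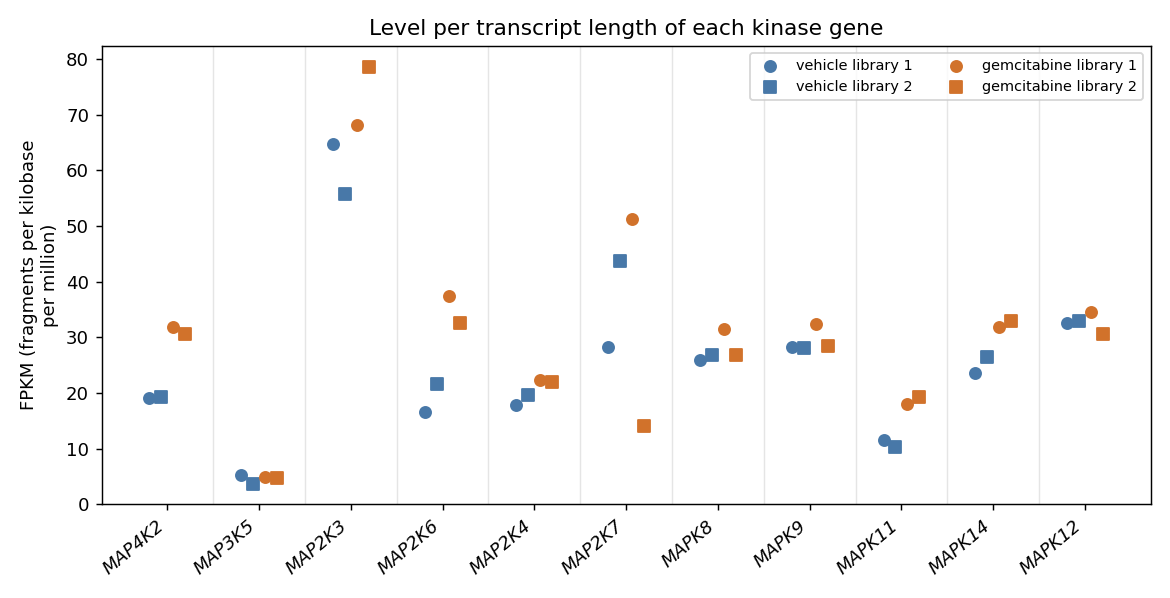
Each point is the FPKM of a kinase gene in 1 library, with vehicle in blue and gemcitabine in orange. MAP2K3 stood above the other genes in every library, and MAP2K7 ran from 14.0 to 51.3 FPKM between the 2 gemcitabine libraries.

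Shares of summed FPKM describe which paralog carried each tier. Among the p38 kinases, MAPK12 held 46.5% and MAPK14 35.6% in vehicle (means of 2 libraries), and in gemcitabine MAPK12 held 39.8% and 36.2% and MAPK14 36.8% and 39.1%, so the order of the pair differed between the libraries. By fragments the order turned, with MAPK14 at 52.3% and MAPK12 at 33.2% in vehicle. MAPK12 shares exonic bases with HDAC10, as given above, so all shares of this tier carry that uncertainty. The share of MAPK11 was 16.8% and 14.4% in vehicle and 20.7% and 22.9% in gemcitabine. Among the JNK kinases, MAPK8 and MAPK9 held 48.3% and 51.6% in vehicle and 48.8% and 50.8% in gemcitabine. By fragments, with no length correction, MAPK8 held 34.1% of the JNK tier in vehicle, and per kilobase of the MANE Select transcript 30.1%, so the near-equal shares depend on the lengths behind the FPKM. Among the MAP2Ks of p38, the share of MAP2K6 was 20.5% and 28.0% in vehicle and 35.5% and 29.4% in gemcitabine. By fragments the share of MAP2K6 overlapped between the conditions, at 23.4% and 27.2% in vehicle and 26.7% and 27.9% in gemcitabine, and per kilobase of its MANE Select transcript it was 5.4% in vehicle. Between MAP2K4 and MAP2K7 the order depended on the unit, with MAP2K4 at 34.8% by FPKM and 59.2% by fragments in vehicle.

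The length that turns fragments into FPKM can be read back from the table as the ratio of CPM to FPKM, here called the implied length. It varied by over 1.5-fold between libraries for 3 of the 10 genes, beside 9.35% of the 10201 genes with at least 100 fragments in each library. For MAP2K7 the implied length was 1648 and 1014 bases in vehicle and 865 and 3016 bases in gemcitabine. Its FPKM accordingly ran from 28.4 and 43.7 in vehicle to 51.3 and 14.0 in gemcitabine, while the fragments of the gemcitabine libraries were 586 and 562. The FPKM of MAP2K7 in gemcitabine therefore enclosed both vehicle values, and its fragments did not.

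For MAP3K5 the implied length ran from 4012 to 6042 bases, both in vehicle. For MAP2K6 it was 1844 and 1647 bases in vehicle and 1195 and 1507 bases in gemcitabine, without overlap. MAPK11 also showed no overlap, at 2134 and 2192 bases in vehicle and 1983 and 1905 bases in gemcitabine. The share of all genes without overlap in implied length was not computed. Cuffdiff obtains a gene's FPKM by summing over its isoforms, and the annotation used here (Gencode 44 on hg19, later than the one behind the table) lists complete coding transcripts of 1512 and 13405 bases for MAP2K6. For MAP2K4, whose fragments did not move, the implied length was 3614 and 3432 bases in vehicle and 3322 and 3087 bases in gemcitabine, and the FPKM were 17.9 and 19.6 in vehicle and 22.3 and 22.0 in gemcitabine. Which isoforms the reads came from was not tested.

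**Figure D3:**
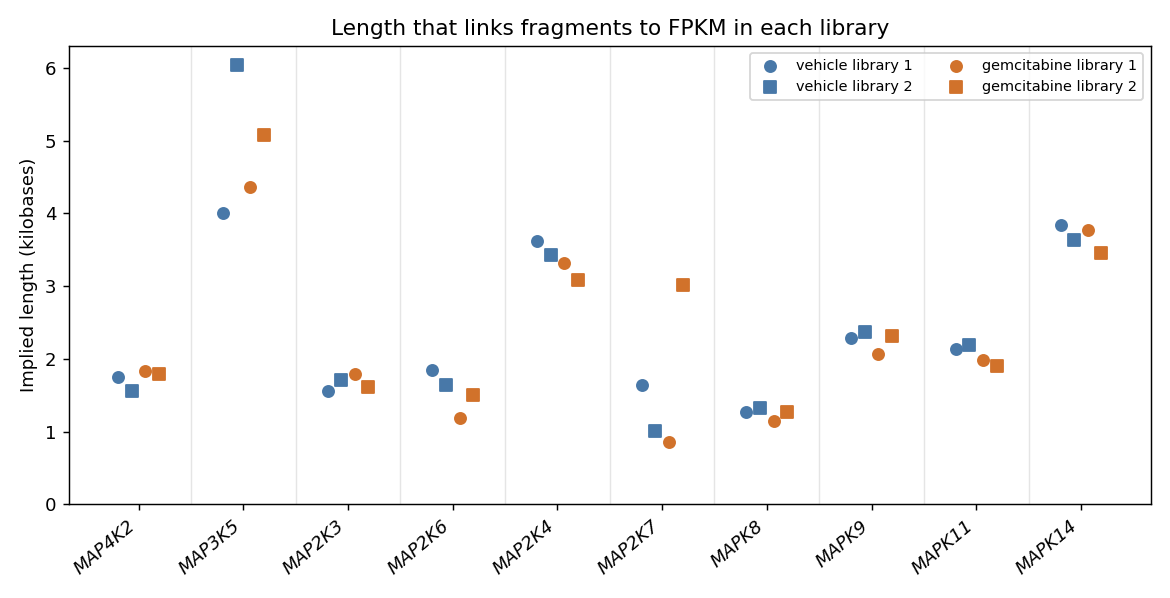
Each point is the implied length of a gene in 1 library in kilobases (CPM over FPKM), with vehicle in blue and gemcitabine in orange. The highest library was at most 1.18-fold the lowest for MAP4K2, MAP2K3, MAP2K4, MAPK8, MAPK9, MAPK11 and MAPK14. Among these, the conditions did not overlap for MAP4K2, MAP2K4 and MAPK11. The share of all genes without such overlap was not computed. MAP2K7 reached 3016 bases in 1 gemcitabine library against 865 bases in the other.

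DNaseI-seq marks open chromatin as peaks, and its lists allow no test with 1 library per condition. A peak lay within 5000 bases of an annotated start site for 3 of the 10 genes in vehicle and 2 in gemcitabine, beside 31.7% and 36.6% of the 14154 tested genes with an annotated start. All these peaks overlapped a start site. At MAP2K7 the vehicle peak (hg19 chr19:7968143-7969062) had a score of 117.66, higher than 86.9% of its list, and the gemcitabine peak (hg19 chr19:7968151-7968954) had a score of 55.84, higher than 17.3%. Both covered the whole MAP2K7 window printed above.

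At MAPK14 the vehicle peak (hg19 chr6:35995130-35995842) had a score of 84.22 and the gemcitabine peak (hg19 chr6:35995019-35995823) a score of 67.72, higher than 66.1% and 40.9% of their lists. At MAP2K3 a peak lay at the downstream start in vehicle (hg19 chr17:21191069-21191888, score 85.57), and the gemcitabine list held no peak there. With 1 library in each condition, these scores and ranks can neither show nor exclude a change in openness. The lists hold 9606 and 10695 peaks, each with a minimum score of 50, so a site just under that score is not listed. The study added ENCODE peaks of PANC1 to its own to raise sensitivity. Absence from these lists therefore does not show that a promoter was closed.

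The genes around the 10 kinases were read from 7 lists of upstream kinases, other p38 and JNK kinases, scaffolds, phosphatases and substrates, 63 genes in all. Of the 62 tested, 10 were called higher and 11 lower by edgeR, and 41 were not called, beside 18.5% higher and 20.0% lower over all genes. With library totals in place of TMM the same lists gave 18 higher and 7 lower. The median log2 change of all genes then moved from 0.01 to 0.12, and the shares of all genes called with that scaling are not given. The median log2 fold change was 0.04. GADD45G, with 0 or 1 fragment in each library, was not tested.

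In the MAP3K tier 6 of 15 genes were called higher and 1 lower, the median log2 change being 0.18. MAP3K12, which encodes the dual leucine zipper kinase of the JNK pathway, had 319 and 285 fragments in vehicle and 517 and 426 in gemcitabine, a log2 fold change of 0.75 (adjusted p = 0.00011, edgeR). MAP3K11, which encodes the mixed-lineage kinase MLK3, had 1372 and 1359 fragments in vehicle and 1692 and 1712 in gemcitabine, a log2 fold change of 0.43 (adjusted p = 0.000167, edgeR). In the MAP4K tier 0 of 6 genes were called higher (1 at an unadjusted p under 0.05, and 0 by DESeq2 or limma) and 1, MAP4K5, lower, with a log2 fold change of -0.28 (adjusted p = 0.00788, edgeR, and 0.054 in DESeq2). The MAP4K5 call was also lost with library totals, on FPKM and when either vehicle library was left out, in 7 of 12 alternatives. MINK1 came next by p with a log2 fold change of 0.16 (adjusted p = 0.0746, edgeR), and it was called higher with library totals and without gemcitabine library 2.

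Of the 12 scaffold and adaptor genes tested, 1 was called higher and 1 lower, the median log2 change being -0.02. GADD45A and GADD45B encode small stress proteins that bind MAP3K4, and they moved in opposite directions. GADD45A had 210 and 225 fragments in vehicle and 367 and 324 in gemcitabine, a log2 fold change of 0.78 (adjusted p = 5.84e-05, edgeR). GADD45B had 966 and 984 fragments in vehicle and 552 and 573 in gemcitabine, a log2 fold change of -0.68 (adjusted p = 9.37e-06, edgeR). Their partner MAP3K4 was the 1 gene of its tier called lower, at a log2 fold change of -0.51 (adjusted p = 0.00142, edgeR), and is named here after its value was seen. The MAP3K4 call was lost without vehicle library 1 and on FPKM.

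Of the 9 phosphatase genes 1 was called higher and 2 lower, the median log2 change being -0.09. DUSP1 and DUSP10 encode dual-specificity phosphatases that remove the activating phosphates from p38 and JNK. DUSP1 had 3990 and 4062 fragments in vehicle and 2317 and 2390 in gemcitabine, a log2 fold change of -0.66 (adjusted p = 3.51e-06, edgeR). DUSP10 had 212 and 209 fragments in vehicle and 341 and 344 in gemcitabine, a log2 fold change of 0.82 (adjusted p = 3.37e-05, edgeR). Both met the 4 criteria with the fold of edgeR, in opposite directions, but the ratio of mean FPKM for DUSP1 was 0.690, a smaller drop than the fold of 1.5 requires.

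Of the 7 substrate kinases 1 was called higher and 2 lower, the median log2 change being 0.03. MAPKAPK3, a kinase activated by p38, had 1124 and 1152 fragments in vehicle and 697 and 729 in gemcitabine, a log2 fold change of -0.56 (adjusted p = 3.55e-05, edgeR). MKNK1, which phosphorylates the translation factor eIF4E, had 408 and 466 fragments in vehicle and 590 and 520 in gemcitabine, a log2 fold change of 0.46 (adjusted p = 0.00123, edgeR), and its FPKM estimate failed in 1 library. The MKNK1 call was lost without vehicle library 1 and on FPKM.

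Of the 10 substrate transcription factors 1 was called higher and 4 lower, the median log2 change being -0.12. JUN, the JNK substrate that gave the kinase its name, had 350 and 397 fragments in vehicle and 479 and 415 in gemcitabine, a log2 fold change of 0.37 (adjusted p = 0.00757, edgeR). JUND, another AP-1 protein, had 2509 and 2450 fragments in vehicle and 1790 and 1786 in gemcitabine, a log2 fold change of -0.36 (adjusted p = 0.000756, edgeR). The call of JUN was lost without either one of the vehicle libraries, that of JUND without vehicle library 1, and both on FPKM.

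The classical ERK1/2 and ERK5 cascade, read the same way, had 2 of 9 genes called higher and 2 lower, the median log2 change being 0.00. ARAF, a RAF kinase at the head of the ERK1/2 branch, changed by -0.26 in log2 (adjusted p = 0.0134, edgeR). MAPK7, which encodes ERK5, changed by 0.31 in log2 (adjusted p = 0.019, edgeR). Both calls were lost when either vehicle library was left out, that of ARAF also with library totals and on FPKM, and that of MAPK7 also in DESeq2 and without gemcitabine library 1. Whether the p38 and JNK members differed from this cascade was not tested.

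**Figure D4:**
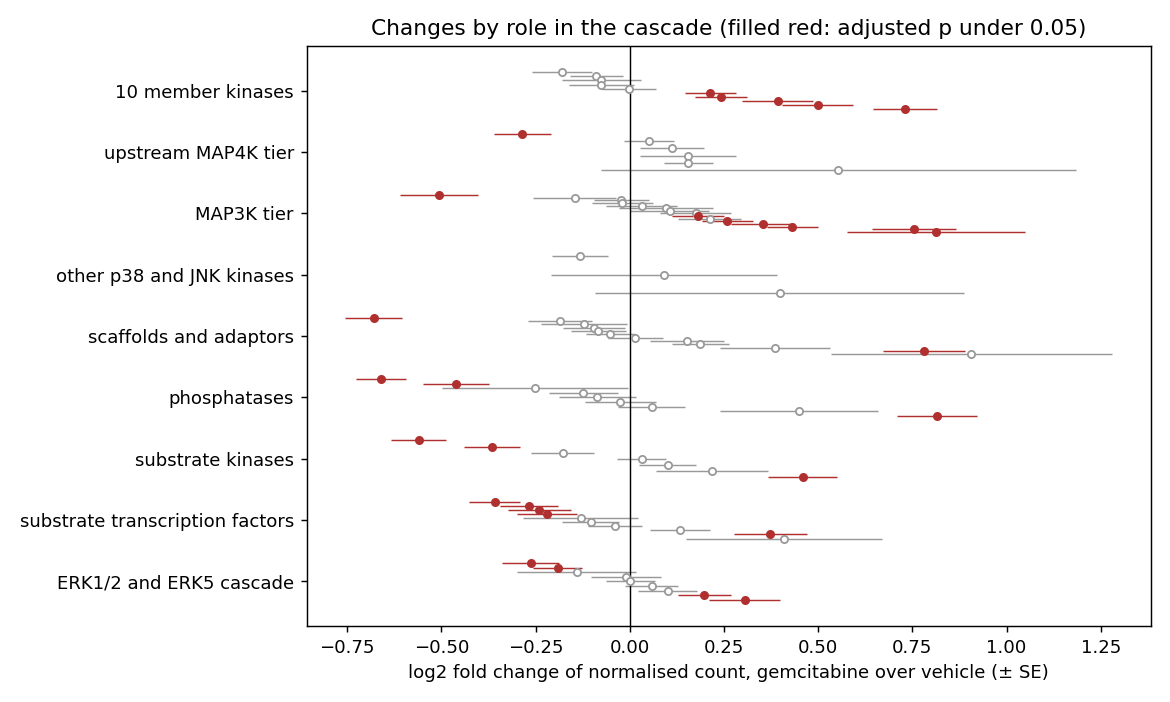
Each point is the log2 fold change of a gene's normalised count, gemcitabine over vehicle, with its standard error, sorted within its list, and filled red points passed an adjusted p under 0.05 in edgeR. The 10 member kinases ran from -0.18 to 0.73 with 5 red points, all above 0, and each other list but that of the remaining p38 and JNK kinases held at least 1 red point below 0.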

How the data were processed

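RNA-seq and DNaseI-seq were done on PANC1 cells treated with vehicle (0.1% DMSO) or 50 nM gemcitabine. The authors aligned single-end RNA reads to hg19 with TopHat2 2.0.8 (version from the submitters' processing notes) and assigned them to protein-coding Gencode 15 genes with Cuffdiff 2.0.2. The deposited table gives estimated counts (fragments per gene, not normalised) and the authors' FPKM, summed over isoforms. The library kit does not mark strand. The deposited DNaseI peaks, called with MACS on hg19 in each condition, carry a score used only to rank peaks within a list.

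The members and gene lists were chosen with earlier results of these data known. Estimated counts were rounded, and genes whose fragments summed to at least 10 were tested in edgeR 4.0.16 (R 4.3.3) after TMM scaling (factors 0.959, 0.966, 1.05 and 1.03), with Benjamini-Hochberg adjustment and no covariate. DESeq2 1.42.0 and limma 3.58.1 were alternatives, with other scalings, filters and left-out libraries. The tests were checked on simulated data. The library index of the table cannot be tied to the labels' replicate numbers and only names libraries. The replicates are biological per the methods and differed by more than sampling noise (mean chi-square per gene of 2.17 for vehicle and 5.16 for gemcitabine). A count of 0 allows up to 3 fragments, 0.190 to 0.227 CPM, for counting error only. Genes with a failed FPKM estimate were kept, and no member had one. Named genes are the 10 members, MAPK10, MAPK12 and MAPK13, and the 2 genes with the smallest adjusted p of each other list, and markers were read as lists. Exact permutation tests used scipy 1.17.1.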

Additional observations from a re-analysis of the deposited data

How the results depend on the processing

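Of the 5 members called higher, the count was 3 with an adjusted p under 0.01, 3 with limma on log2(FPKM + 1) or log2(FPKM + 0.1) (MAP2K3 and MAPK14 were lost each time), 0 with limma without a filter (5 at an unadjusted p under 0.05, and 0 of all 17783 genes passed after adjustment), and 2 without vehicle replicate 1, 3 without vehicle replicate 2 and 5 without either gemcitabine library. The count of members called lower stayed at 0 in every alternative. The 4 criteria called 1 member, 2 with library totals, 3 with limma on log2(FPKM + 1) or log2(FPKM + 0.1) or with the fold taken from the ratio of mean FPKM, 0 with limma without a filter, and 1 with each library left out. The pathway lists gave 10 genes higher and 11 lower, against 7 lower with DESeq2, 18 and 7 with library totals, 4 and 3 with limma on log2(FPKM + 1), 5 and 3 on log2(FPKM + 0.1), 0 and 0 without a filter (11 and 3 unadjusted), and 5 to 15 and 4 to 16 with 1 library left out. Apart from limma without a filter, the shares of all genes called in these alternatives are not given. The causes were not tested.

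The 5 members called higher kept their direction in all 12 alternatives. The log2 fold change of MAP2K4, -0.0013, took the other sign with DESeq2 and DESeq2-type size factors (0.00097 and 0.00096), library totals (0.109), no filter (0.0053), filterByExpr (0.0088), limma (0.234 on log2(FPKM + 1) with or without a filter, 0.244 on log2(FPKM + 0.1)), and without vehicle replicate 2 (0.032) or gemcitabine replicate 2 (0.045), within a range of -0.0453 to 0.045 over the left-out libraries. With library totals MAP3K5, MAPK8 and MAPK9 stood at 0.034, 0.035 and 0.021. With limma they stood at 0.077, 0.136 and 0.101 on log2(FPKM + 1), with or without a filter, and at 0.095, 0.141 and 0.104 on log2(FPKM + 0.1). Over the left-out libraries MAP3K5 ran from -0.179 to 0.025, the latter without gemcitabine replicate 1. On FPKM the log2 difference of the MAP2K3 to MAP2K6 ratio was -0.60 and that of MAP2K4 to MAP2K7 0.64. When only peaks at or above the median score were kept, 0 of the 10 members had a gemcitabine peak, beside 21.3% of 14154 genes. The vehicle list then gave 3 of the 10, beside 19.3%.

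With 1 library left out, the log2 difference ran from -0.40 to -0.17 for MAPK14 to MAPK11, from 0.11 to 0.25 for MAP2K4 to MAP2K7, from -0.30 to -0.01 for MAP2K3 to MAP2K6 and from -0.02 to 0.05 for MAPK8 to MAPK9. No paired analysis was possible because nothing links the library index of the table to the numbering in the labels. With 2 libraries per group, p-values rest on the spread shared across genes. With 1 library left out, the spread within a condition comes only from the pair left whole. The vehicle pair was the closer (mean chi-square per gene of 2.17 against 5.16). The numbers of calls with a library left out therefore also depend on which pair remains, and do not measure robustness.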
